A study of Sus scrofa with 21 samples.

Results

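COL4A2, COL4A5, COL6A2, COL6A3, COL8A1, COL12A1, COL15A1 and COL21A1 encode collagen chains that do not form the thick banded fibrils of a scar but build the sheets, filaments and fibril coatings around them. Type IV collagen is the mesh of the basement membrane, the thin sheet that wraps each cardiomyocyte and each capillary, and type XV collagen anchors that sheet to the stroma. Type VI collagen forms beaded filaments near the cell surface, type VIII collagen forms hexagonal networks and is known from vessel walls, and types XII and XXI belong to the fibril-associated collagens, of which type XII coats fibrils of type I collagen. These 8 genes were taken by name, with all their probe sets, and have 11 of the 24123 probe sets of the porcine array and 8 of its 7516 named genes.

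The study profiled the left ventricle of female pigs of the Landrace x Large White crossbreed after surgical myocardial infarction, in which a side branch of the circumflex coronary artery (the first marginal) was closed and not reopened. Infarct core (IC) came from the middle of the scar, remote myocardium (RM) from the non-infarcted septum of the same pig, and control myocardium (CM) from 3 pigs that the labels call sham-operated and the study's text calls healthy. The groups were IC and RM, each at 1, 4 and 6 weeks, and CM, with 3 arrays each and 21 in all. Sample names give the stages as 6, 30 and 45 days. Each stage had its own 3 pigs, so that 9 infarcted and 3 control animals were measured, and every comparison with CM rests on the same 3 control arrays. Each array measured a piece of whole tissue, in which more cells of a kind and more RNA per cell cannot be told apart.

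Levels are the log2 RMA values of the authors (RMA corrects the background, normalizes arrays and summarizes the probes of a set), and a difference of 1 is a 2-fold change. The filter kept the 12180 probe sets that exceeded 3 in 10 or more arrays, and an adjusted P under 0.05 in limma was called. All 8 genes had a tested probe set. COL8A1 has 4 probe sets, of which 3 did not pass the filter, and each of the other genes has 1. The platform names 5 of the genes. COL4A5, COL12A1 and COL21A1 carry the name of the human gene to which the submitters matched the probe set. The sources disagree for 1 gene. The probe set that the platform calls COL6A2 is DOCK11, a guanine nucleotide exchange factor, in that match, and its values below are those of COL6A2 by the platform's name only.

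Most of the collagens were higher in the infarct core than in control at each stage. Of the 8 genes, 7, 8 and 7 were called higher in IC at the 3 successive stages, and 0 were called lower. Of all tested probe sets, 54.2% were called at 1 week (26.0% higher), 54.4% at 4 weeks (25.3% higher) and 47.0% at 6 weeks (21.0% higher). The median log2 FC of the genes was 2.17, 2.50 and 2.13 at 1, 4 and 6 weeks, while that of all tested probe sets was -0.06, -0.06 and -0.08. Without COL6A2, the counts were 6, 7 and 6 of 7. In all 9 IC arrays, 5 genes (COL4A2, COL6A2, COL6A3, COL8A1 and COL12A1) lay above all 12 RM and CM arrays, a separation that 10.4% of tested probe sets had.

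In the remote myocardium the picture was narrower. At 1 week 2 genes, COL4A5 and COL21A1, were called higher in RM, where 1.13% of tested probe sets were called (0.509% higher). At 4 and 6 weeks 0 of the 8 genes were called in limma, where 1.08% and 0.197% of tested probe sets were. An unadjusted P under 0.05 was reached by 3 genes at 4 weeks (COL4A2, COL4A5 and COL21A1) and by 2 at 6 weeks (COL4A5 and COL21A1), all with higher values in RM. Of all tested probe sets, 16.7% and 12.5% reached it at these stages. COL4A5 and COL21A1 were the 2 genes whose 18 arrays of infarcted pigs, IC and RM, all lay above the 3 CM arrays, which held for 0.846% of tested probe sets. The median log2 FC of the 8 genes in RM was 0.53, 0.26 and -0.05 at 1, 4 and 6 weeks.

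**Figure D1:**
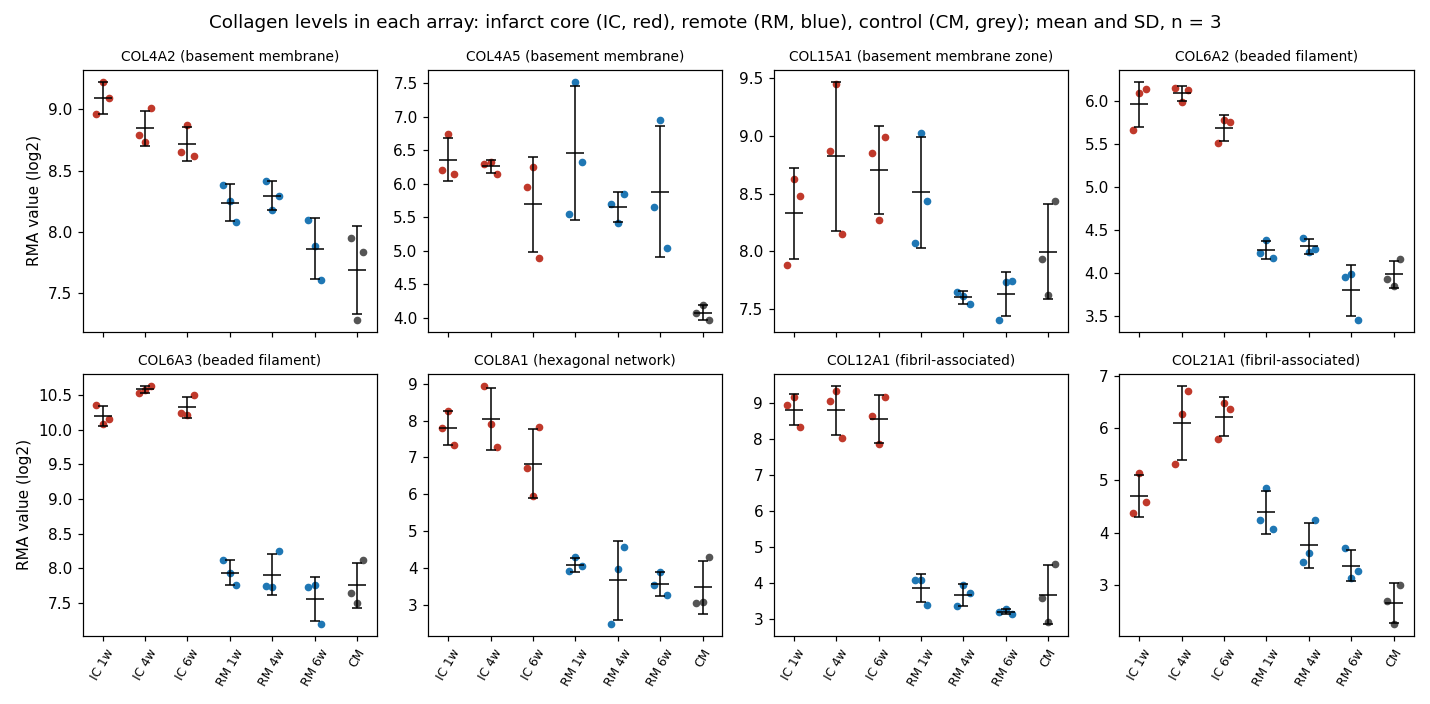
Level of each collagen gene (log2 RMA value, a separate vertical scale for each gene) in the 21 arrays, as points, with the mean and SD of the 3 arrays of a group, for IC (red), RM (blue) and CM (grey). COL6A3, COL8A1 and COL12A1 have their 9 IC arrays far above the 12 others, whereas all 18 arrays of infarcted pigs exceed CM for COL4A5 and COL21A1.

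COL4A2 (probe set Ssc.3467.1.S1_at) encodes the α2 chain that pairs with COL4A1 in the main type IV network of basement membranes. Its level in IC was 8.96, 9.23 and 9.09 at 1 week, 8.79, 8.73 and 9.01 at 4 weeks, and 8.65, 8.88 and 8.62 at 6 weeks. In RM it was 8.38, 8.25 and 8.08 at 1 week, 8.42, 8.18 and 8.29 at 4 weeks, and 8.10, 7.88 and 7.60 at 6 weeks, against 7.95, 7.28 and 7.83 in CM. All IC arrays were higher than all RM and CM arrays, and the RM arrays of 1 and 4 weeks were also higher than the CM arrays, while those of 6 weeks overlapped them. The log2 FC of IC against CM was 1.41, 1.16 and 1.03 at 1, 4 and 6 weeks (SE 0.17, adjusted P = 2.14e-06, 1.66e-05 and 1.08e-04). In RM it was 0.55, 0.61 and 0.17 at 1, 4 and 6 weeks (adjusted P = 0.132, 0.0861 and 0.716). With array weights, which let arrays that stand apart count less, the first 2 of these passed (adjusted P = 0.0249 and 0.00554).

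The partner chain COL4A1 moved in the same direction. Its mean level was 8.28, 7.96 and 7.87 in IC at 1, 4 and 6 weeks and 7.13 in CM, with a log2 FC of 1.15, 0.83 and 0.75 that was called at each stage. In RM, COL4A1 differed from CM by 0.25, 0.30 and 0.03, with no call. Over the 21 arrays COL4A1 and COL4A2 correlated at r = 0.95, and at r = 0.76 once the group means were taken off, although the arrays of a pig share that pig. No probe set bore the name COL4A6 or COL8A2 by the naming used here, so these partner chains could not be looked at.

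COL4A5 (Ssc.23368.1.A1_at) encodes the α5 chain of the type IV networks best known from the filtration barrier of the kidney and from smooth muscle. In IC its level was 6.21, 6.74 and 6.14 at 1 week, 6.30, 6.33 and 6.15 at 4 weeks, and 5.94, 6.24 and 4.89 at 6 weeks. RM levels were 5.54, 7.52 and 6.32 at 1 week, 5.70, 5.41 and 5.84 at 4 weeks, and 5.65, 6.95 and 5.05 at 6 weeks, against 4.08, 4.19 and 3.97 in CM. The 3 CM arrays lay close together and below every array of an infarcted pig, and IC and RM overlapped at 1 and 6 weeks. In IC the gene rose by a log2 FC of 2.28, 2.18 and 1.61 at 1, 4 and 6 weeks (SE 0.45, adjusted P = 3.51e-04, 5.25e-04 and 0.0071).

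The RM values of COL4A5 were about as high as its IC values. Its log2 FC against CM in RM was 1.57 (95% CI 0.63 to 2.52) at 4 weeks and 1.81 (95% CI 0.86 to 2.75) at 6 weeks, with an adjusted P of 0.0914 and 0.104, beside the called rise of 5.23-fold at 1 week (95% CI of log2 FC 1.44 to 3.33). Between IC and RM of the same pigs, COL4A5 differed by -0.10 at 1 week (95% CI -0.68 to 0.48), 0.61 at 4 weeks (95% CI 0.03 to 1.19, adjusted P = 0.0719) and -0.19 at 6 weeks (95% CI -0.77 to 0.39). The sign varied among pigs: IC was above RM in 1 of 3 pigs at 1 week, in 3 of 3 at 4 weeks and in 1 of 3 at 6 weeks. The pig with the highest RM level at 1 week (7.52) and that at 6 weeks (6.95) had IC levels of 6.74 and 6.24. The call in RM at 1 week was lost without the CM array of pig 31 (adjusted P = 0.0678) or without the RM array of pig 8 (log2 FC 1.86, adjusted P = 0.0644).

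COL15A1 (Ssc.19883.1.S1_at) encodes the chain of type XV collagen, which sits at the outer face of basement membranes of muscle and capillaries and whose C-terminal fragment is known as restin. The 9 IC arrays read 7.88, 8.62 and 8.48 at 1 week, 8.87, 9.44 and 8.15 at 4 weeks, and 8.85, 8.27 and 8.99 at 6 weeks. The RM arrays gave 8.07, 9.02 and 8.44 at 1 week, 7.65, 7.61 and 7.55 at 4 weeks, and 7.41, 7.74 and 7.74 at 6 weeks, against 7.93, 7.62 and 8.44 in CM. IC overlapped CM at every stage, and the 3 RM arrays of 1 week were all above the 6 later RM arrays. In IC the log2 FC against CM was 0.33 at 1 week (adjusted P = 0.374), 0.82 at 4 weeks (95% CI 0.18 to 1.47, adjusted P = 0.0300) and, without a call, 0.71 at 6 weeks (adjusted P = 0.0658). The 4-week call was lost without the IC array of pig 18 or 20 and without the CM array of pig 30 or 31 (adjusted P = 0.0676, 0.174, 0.0702 and 0.131), and when arrays were centred on ribosomal protein genes (log2 FC 0.51, adjusted P = 0.206).

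Set against the remote region of the same pig, COL15A1 gave a clearer difference. IC minus RM was -0.19, -0.40 and 0.04 in the pigs of 1 week, 1.22, 1.83 and 0.61 in those of 4 weeks, and 1.44, 0.54 and 1.24 in those of 6 weeks. The regions thus did not separate at 1 week (log2 FC -0.18, 95% CI -0.70 to 0.33), and IC was higher in 3 of 3 pigs at 4 and 6 weeks (1.22 and 1.07, SE 0.23, adjusted P = 0.0014 and 0.0039). The change of this difference between stages was not called: it was larger than at 1 week by 1.40 at 4 weeks and by 1.26 at 6 weeks (adjusted P = 0.153 and 0.137). RM at 4 weeks lay 0.91 below RM at 1 week (log2 FC -0.91, 95% CI -1.55 to -0.27, adjusted P = 0.125), with no overlap between the arrays.

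COL6A3 (Ssc.16589.1.S1_at) encodes the α3 chain of type VI collagen, the longest of its chains, whose released tail is known as endotrophin. Values in IC were 10.36, 10.07 and 10.16 at 1 week, 10.53, 10.57 and 10.63 at 4 weeks, and 10.24, 10.21 and 10.50 at 6 weeks. RM values were 8.12, 7.93 and 7.77 at 1 week, 7.75, 7.73 and 8.25 at 4 weeks, and 7.74, 7.76 and 7.20 at 6 weeks, against 7.64, 7.50 and 8.13 in CM. The IC arrays stood together and 1.83 or more above every other array, and RM overlapped CM at each stage. The rise in IC was 5.42-fold, 7.07-fold and 5.91-fold at 1, 4 and 6 weeks (log2 FC 2.44, 2.82 and 2.56, SE 0.19, adjusted P = 1.65e-08, 4.20e-09 and 2.45e-08). In RM the log2 FC was 0.18, 0.15 and -0.19, each with a 95% CI that held 0 (-0.21 to 0.58, -0.24 to 0.55 and -0.59 to 0.20).

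The probe set named COL6A2 (Ssc.3303.1.S1_at), the α2 chain of type VI collagen by the platform's annotation, behaved alike on its own scale. The level of this chain in IC was 5.66, 6.09 and 6.14 at 1 week, 6.15, 5.99 and 6.13 at 4 weeks, and 5.51, 5.78 and 5.76 at 6 weeks. Levels in RM were 4.24, 4.38 and 4.18 at 1 week, 4.41, 4.25 and 4.28 at 4 weeks, and 3.96, 3.99 and 3.46 at 6 weeks, against 3.94, 3.86 and 4.17 in CM. All IC arrays were above all others, and the RM arrays of 1 and 4 weeks were just above the CM arrays. Its log2 FC in IC was 1.98, 2.10 and 1.70 (SE 0.16, adjusted P = 2.46e-08, 1.35e-08 and 2.96e-07), and in RM it was 0.28, 0.33 and -0.18 with no call.

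The α1 chain COL6A1, without which the type VI molecule is not assembled, has no probe set under that name on the platform. For 2 probe sets that the platform lists as an uncharacterized locus, the authors' match gives COL6A1, and these were looked up after the other values had been seen. The brighter of them had means of 8.23, 8.29 and 7.39 in IC, 6.04, 5.95 and 5.44 in RM, and 5.42 in CM, with a log2 FC in IC of 2.81, 2.88 and 1.97 (adjusted P = 1.48e-08, 1.22e-08 and 1.58e-06). The dimmer one, near the level of the filter in CM (mean 3.11), was called in IC at 4 weeks only (log2 FC 1.50, adjusted P = 5.46e-06), so that the 2 probe sets disagree at 1 and 6 weeks. Over the 21 arrays the brighter one correlated with the COL6A2 probe set at r = 0.98 and with COL6A3 at r = 0.95, and COL6A2 with COL6A3 at r = 0.98. These values mostly repeat the gap between IC and the rest. Once the group means were taken off, COL6A2 and COL6A3 correlated at r = 0.40, and at r = -0.39 over the 9 IC arrays. For COL6A1 this was not computed.

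COL8A1 (Ssc.16132.2.S1_at) encodes a short chain of type VIII collagen, known from the wall of remodelling vessels. IC levels were 7.80, 8.27 and 7.34 at 1 week, 8.95, 7.91 and 7.29 at 4 weeks, and 6.72, 5.95 and 7.83 at 6 weeks. The RM arrays read 3.91, 4.29 and 4.04 at 1 week, 2.48, 3.97 and 4.56 at 4 weeks, and 3.53, 3.89 and 3.26 at 6 weeks, against 3.04, 3.09 and 4.29 in CM. The IC arrays were well apart from the rest, and RM and CM shared one range near the level of the filter. The log2 FC in IC was 4.33, 4.58 and 3.36 at 1, 4 and 6 weeks (SE 0.52, adjusted P = 2.28e-06, 1.14e-06 and 6.62e-05), that is 20.2-fold, 23.9-fold and 10.3-fold. In RM it was 0.61, 0.20 and 0.09 (95% CI -0.49 to 1.71, -0.90 to 1.30 and -1.01 to 1.19).

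The 3 other probe sets of COL8A1 were dim and not tested singly. Their means over the 21 arrays were 0.83, 2.08 and 2.66, beside 5.35 for the one used. With the mean of all 4 probe sets in its place, the log2 FC of COL8A1 in IC was 1.61, 1.95 and 1.38 and was still called at each stage, although that mean holds the bright probe set, which has the largest part of the difference. One of the dim ones, Ssc.16132.1.A1_at, had means of 0.61, 0.78 and 0.90 in IC at 1, 4 and 6 weeks against 0.80 in CM.

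COL12A1 (Ssc.1049.1.S1_at) encodes the chain of type XII collagen, which binds along type I fibrils and links them to the surrounding matrix. IC arrays gave 8.94, 9.15 and 8.34 at 1 week, 9.04, 9.31 and 8.02 at 4 weeks, and 8.62, 7.85 and 9.16 at 6 weeks. In RM it was 4.09, 4.07 and 3.40 at 1 week, 3.35, 3.95 and 3.73 at 4 weeks, and 3.19, 3.28 and 3.13 at 6 weeks, against 3.58, 2.91 and 4.54 in CM. The IC arrays lay 3.32 or more above all others, a gap wider than the spread within either set. The rise in IC, 35.1-fold, 34.7-fold and 29.3-fold at 1, 4 and 6 weeks, was the largest measured among the 8 genes at each stage (log2 FC 5.13, 5.12 and 4.87, SE 0.39, adjusted P = 1.66e-08, 1.73e-08 and 6.67e-08). The intervals of the differences between IC stages, -0.85 to 0.81 for 4 weeks against 1 week and -1.07 to 0.58 for 6 weeks against 4 weeks, allow changes of up to about 1 in log2 FC. In RM the log2 FC was 0.18, 0.00 and -0.47, with no call.

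COL21A1 (Ssc.24270.1.S1_at) encodes the chain of type XXI collagen, a fibril-associated collagen described in vessel walls. Levels in IC were 4.37, 5.15 and 4.58 at 1 week, 5.31, 6.27 and 6.70 at 4 weeks, and 5.79, 6.48 and 6.36 at 6 weeks. RM levels were 4.23, 4.84 and 4.07 at 1 week, 3.43, 3.60 and 4.24 at 4 weeks, and 3.70, 3.14 and 3.26 at 6 weeks, against 2.70, 2.25 and 3.00 in CM. IC and RM overlapped at 1 week and were apart at 4 and 6 weeks, with IC higher at the later stages and RM lower. In IC the log2 FC was 2.05, 3.45 and 3.56 (SE 0.33, adjusted P = 5.36e-05, 1.74e-07 and 3.29e-07). In RM the called rise at 1 week was 3.33-fold (95% CI of log2 FC 1.04 to 2.43), and the log2 FC was 1.11 (95% CI 0.41 to 1.81) at 4 weeks and 0.72 (95% CI 0.02 to 1.41) at 6 weeks, with an adjusted P of 0.107 and 0.382. The RM call at 1 week was lost without the CM array of pig 31 (log2 FC 1.53, adjusted P = 0.101) or without the RM array of pig 8 (log2 FC 1.50, adjusted P = 0.0705). No CM array exceeded 3, the level of the filter, and the deposited values hold no call of detection, so whether COL21A1 was above background in CM is not known. COL8A1 and COL12A1, with CM arrays between 2.91 and 4.54, had baselines near that level too, and the folds of these 3 genes against CM are those of the measured values.

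**Figure D2:**
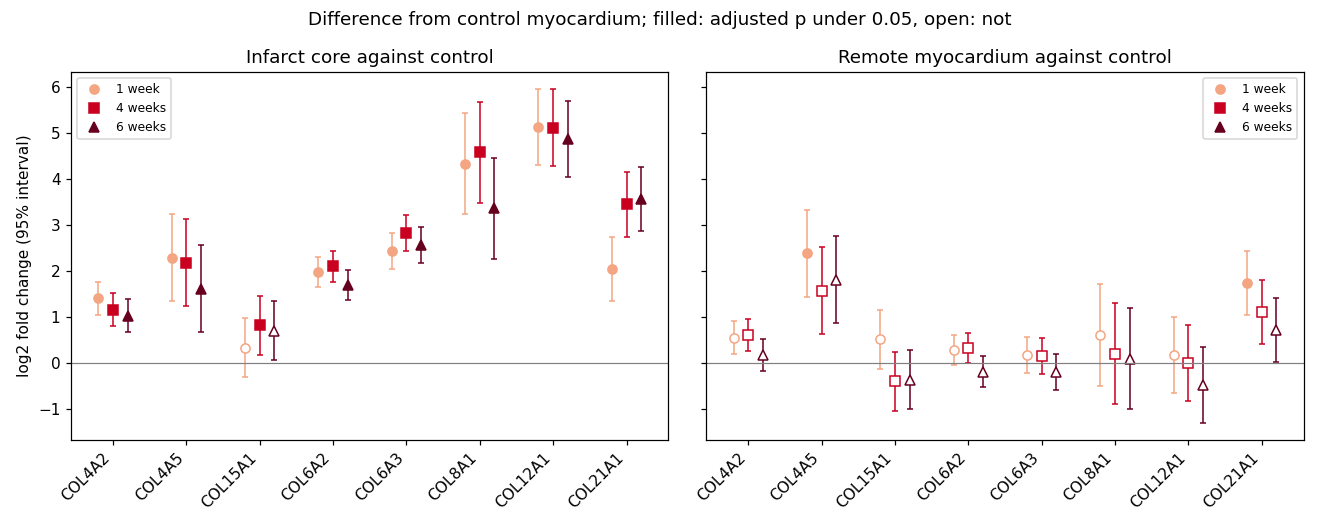
Log2 fold change of each collagen gene in IC (left) and in RM (right) against the same 3 CM arrays at 1, 4 and 6 weeks, with the 95% interval of the limma fit and filled symbols where the adjusted P was under 0.05. In IC only COL15A1 has open symbols, at 1 and 6 weeks, and in RM only COL4A5 and COL21A1 at 1 week are filled.

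Within the infarct core, COL21A1 was the gene called higher after the first stage. IC at 4 weeks exceeded IC at 1 week by 1.40, and IC at 6 weeks exceeded it by 1.51 (adjusted P = 0.0124 and 0.0062), with no overlap of the arrays in either case. It was the 1 gene of 8 called in each, where 11.9% and 15.7% of tested probe sets were called (5.57% and 6.64% higher). A count of 1 in 8 is near the share called in either direction. Without a call, COL6A3 also had its IC arrays of 4 weeks (10.53 to 10.63) above those of 1 week (10.07 to 10.36). The 4-week call of COL21A1 was lost without the IC array of pig 22 of 4 weeks (adjusted P = 0.0560) or without that of pig 7 or 9 of 1 week (adjusted P = 0.0542 and 0.0552). The labelling control probe sets of the array, not of the pig, averaged 2.77, 3.70 and 3.53 in IC at 1, 4 and 6 weeks, beside 3.19 in CM. That average of 18 includes TrpnX probe sets near the floor, such as AFFX-TrpnX-M_at (0.54, 0.55 and 0.64), which lessen the differences. Single ones moved by more: AFFX-LysX-M_at had 3.02, 4.09 and 4.65, and AFFX-DapX-3_at 6.92, 8.02 and 8.43. AFFX-ThrX-5_at had 2.06, 4.00 and 1.59, lower again at 6 weeks. The hybridization controls averaged 7.58, 8.27 and 8.01, beside 7.96 in CM. In RM at 1, 4 and 6 weeks the labelling controls averaged 2.99, 3.38 and 3.32, and the hybridization controls 7.89, 7.90 and 8.24. Probe sets for the 2 ends of pig transcripts moved unevenly. The 5 prime one of EF1A had 10.09, 11.24 and 9.95 in IC, 9.18, 10.02 and 8.91 in RM, and 8.62 in CM. Its 3 prime one had 12.05, 12.14 and 11.97 in IC, 11.27, 11.23 and 11.02 in RM, and 10.82 in CM. For GAPDH the 5 prime one (AFFX-Ssc-gapdh-5_at) had 10.99, 11.29 and 11.28 in IC, without a fall at 6 weeks. What these controls have to do with the stage differences, in IC or in RM, was not tested. Between 6 and 4 weeks 0 genes were called in limma (3.88% of tested probe sets), and COL6A2 and COL8A1 had an unadjusted P under 0.05, with values lower at 6 weeks by a log2 FC of -0.40 and -1.22. Of all tested probe sets, 19.5% had an unadjusted P under 0.05 there.

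Between stages of RM, 0 of the 8 genes were called in limma (1.59%, 0.181% and 0.632% of tested probe sets for 4 against 1, 6 against 1 and 6 against 4 weeks). At an unadjusted P under 0.05 there were 1, 4 and 2 genes, all with lower values at the later stage. Of all tested probe sets, 18.7%, 14.3% and 11.1% reached it in either direction. The 4 genes of 6 weeks against 1 week were COL4A2 (log2 FC -0.38), COL6A2 (-0.47), COL15A1 (-0.88) and COL21A1 (-1.02), and their adjusted P values were 0.316, 0.184, 0.199 and 0.172. The median log2 FC of the 8 genes for 6 weeks against 1 week was -0.55, beside -0.05 over all tested probe sets.

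The comparison of regions within a pig, which takes off what the 2 samples of an animal share, called 5, 7 and 7 genes higher in IC at the successive stages, and 0 lower. The 2 regions are also different sites, scar and septum, so that infarction and site cannot be told apart in it. For CM the study's text names no site. The background was 52.6%, 54.7% and 47.7% of tested probe sets called (24.7%, 25.5% and 22.6% higher). COL12A1 differed most, with IC minus RM of 4.85, 5.08 and 4.94 in the pigs of 1 week, 5.69, 5.36 and 4.30 at 4 weeks, and 5.43, 4.57 and 6.03 at 6 weeks. COL8A1 had means of 3.72, 4.38 and 3.27 (SE 0.60), with single pigs between 2.06 and 6.47. COL6A3 (2.26, 2.67 and 2.76, SE 0.18) and COL6A2 (1.69, 1.77 and 1.88, SE 0.16) were higher in IC in 9 of 9 pigs. So were COL8A1, COL12A1, COL4A2 and, without a call at 1 week, COL21A1. How many of all tested probe sets were higher in IC in 9 of 9 pigs was not counted. COL4A2 had the smallest called differences, 0.86, 0.55 and 0.86 (SE 0.15), of which that of 4 weeks was lost without pig 22 (adjusted P = 0.0619) and with centring on ribosomal protein genes (log2 FC 0.28, adjusted P = 0.0892).

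For COL21A1 the difference between regions was itself called as changed between stages. IC minus RM was 0.13, 0.30 and 0.51 in the pigs of 1 week, 1.88, 2.68 and 2.46 in those of 4 weeks, and 2.09, 3.35 and 3.10 in those of 6 weeks. All 6 pigs of the later stages lay above the 3 pigs of 1 week. The regional difference was not called at 1 week (0.32, 95% CI -0.20 to 0.83, adjusted P = 0.275) and was called at 4 and 6 weeks (2.34 and 2.85, adjusted P = 2.56e-05 and 1.93e-05). At 6 weeks it was larger than at 1 week by 2.53 (SE 0.33, 95% CI 1.80 to 3.26, adjusted P = 0.0206), where 0.320% of tested probe sets were called (0.213% higher), and COL15A1 had an unadjusted P under 0.05 there without a call. At 4 weeks it was larger than at 1 week by 2.02 (adjusted P = 0.0884), where 0 of the 8 genes and 0.0657% of tested probe sets were called in limma, and COL15A1 and COL21A1 had an unadjusted P under 0.05. Between 6 and 4 weeks 0 genes were called, 0 had an unadjusted P under 0.05, and 0% of tested probe sets were called. Over all tested probe sets, an unadjusted P under 0.05 was reached by 14.6% for 6 weeks against 1 week. It was reached by 11.1% for 4 weeks against 1 week and by 6.58% for 6 against 4 weeks. The call of COL21A1 for 6 weeks against 1 week was lost when pig 3, 5, 7, 8 or 9 was left out (adjusted P = 0.102, 0.0546, 0.0967, 0.0710 and 0.0588, log2 FC 2.28 to 2.63) and without the pig as a block (adjusted P = 0.0593).

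**Figure D3:**
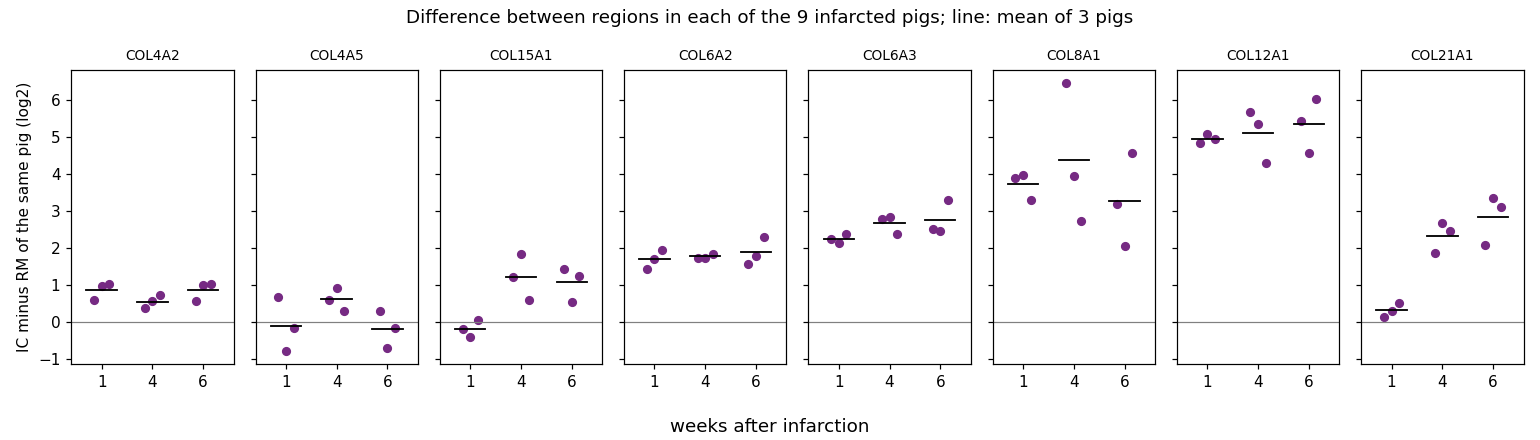
IC minus RM (log2) in each of the 9 infarcted pigs at 1, 4 and 6 weeks for the 8 collagen genes, with a line at the mean of 3 pigs. COL21A1 lies between 0.13 and 0.51 in the 3 pigs of 1 week and at 1.88 or more in the 6 later pigs, COL15A1 between -0.40 and 0.04 and at 0.54 or more, COL4A5 lies on both sides of 0, and COL12A1 lies above 4 in every pig.

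The order of the 7 group means showed the same split. For COL12A1, COL8A1, COL6A2 and COL4A2 the 3 IC groups came first and overlapped each neighbour among themselves, with a gap below them. For COL6A2, RM at 1 week (4.27 ± 0.11) and CM (3.99 ± 0.16) did not overlap either. For COL6A3 the 3 IC groups also came first, with IC at 4 weeks (10.58 ± 0.05, SD, n = 3) above IC at 6 weeks (10.32 ± 0.16) without overlap. For COL4A5 the only neighbours that did not overlap were RM at 4 weeks (5.65 ± 0.22) and CM (4.08 ± 0.11), and its highest mean was that of RM at 1 week (6.46 ± 1.00). For COL15A1 all neighbouring groups overlapped, between 8.82 ± 0.65 in IC at 4 weeks and 7.60 ± 0.05 in RM at 4 weeks. For COL21A1 the order ran through IC at 6, 4 and 1 weeks and then RM at 1, 4 and 6 weeks to CM (2.65 ± 0.38), with gaps only between IC at 4 and 1 weeks and between RM at 6 weeks and CM.

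Among the genes themselves, the correlation over the 21 arrays mostly repeats the gap between IC and the rest, so that with group means taken off is given too. COL8A1 and COL12A1 were the closest pair within groups (r = 0.97 over the 21 arrays, 0.74 within groups, and 0.84 within groups over the 9 IC arrays alone). COL12A1 and COL15A1 followed (0.67, 0.66 and 0.74), then COL4A2 and COL6A2 (0.91, 0.62 and 0.58). COL4A5 had r between 0.31 and 0.54 with the other 7 genes over the 21 arrays. These are descriptions over arrays of which 18 come in pairs from the same pigs.

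By the rule of the highest correlation over the 21 arrays, each gene has 3 nearest named genes outside the set. For COL6A2 these were COL5A1 (r = 0.99), MMP2 (0.99) and HTRA1 (0.98), and for COL6A3 they were COL1A1 (0.99), EPB41L2 (0.99) and MMP2 (0.99), of which MMP2 is a gelatin-degrading protease. For COL12A1 they were ZNF423 (0.99), the small proteoglycan BGN (0.99) and the mesenchymal homeobox factor PRRX1 (0.99), and for COL8A1 they were PRRX1 (0.97), the cadherin CDH11 (0.97) and ATL3 (0.97). COL4A2 was nearest to PLXNB2 (0.95), COL4A1 (0.95) and the complement subunit C1QB (0.95). COL21A1 was nearest to PTPRD (0.93), the growth factor PDGFD (0.92) and the fibril-associated collagen COL14A1 (0.92). The nearest genes of COL15A1 were ADD3 (0.86), STT3B (0.81) and TVP23B (0.81), and those of COL4A5 were RNF144B (0.82), TEX264 (0.72) and EDIL3 (0.72), which lay farther off. With the group means taken off, the correlations with the nearest genes ran from 0.19 (COL4A5 and EDIL3) to 0.87 (COL12A1 and ZNF423).

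Other nonfibrillar collagens of the array rose in IC too. All 5 that were tested were called higher at each stage and 0 of them in RM, with a median log2 FC in IC of 2.21, 2.37 and 2.14. Over all tested probe sets, 26.0%, 25.3% and 21.0% were called higher in IC at 1, 4 and 6 weeks. The share called lower was 28.2%, 29.1% and 26.0%, and in RM 1.13%, 1.08% and 0.197% were called. These shares apply to the lists that follow too. COL16A1, another fibril-associated collagen, had 3.37, 3.57 and 3.63. COL14A1 had 2.39, 3.60 and 3.47, COL17A1, known from the anchoring of epithelia, had 2.21, 2.37 and 2.14, and COL18A1, the relative of COL15A1 that gives rise to endostatin, had 1.58, 1.87 and 1.28. Of 8 fibrillar collagens tested, 8, 7 and 7 were called higher in IC at 1, 4 and 6 weeks and 0 lower, among them COL1A1 (4.60, 4.95 and 4.63) and COL1A2 (3.23, 3.54 and 3.32). In RM 1 of the 8, COL11A1, was called lower at 4 weeks (log2 FC -0.81).

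The laminins and their partners are the other main scaffold of the basement membrane. Of 6 tested, 4 were called higher in IC at each stage, and 1 was called lower at 1 week, with a median log2 FC of 0.72, 0.94 and 0.66. SPARC, which binds type IV collagen, had 2.49 at 1 week and the laminin chain LAMB1 had 1.22, whereas LAMB2, a chain of mature muscle laminin, fell (log2 FC -0.94 at 1 week). NID2, a linker of laminin and type IV collagen, had 0.86 at 1 week and -0.05 at 4 weeks. In RM 0 of the 6 were called.

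Of 21 genes of collagen synthesis and crosslinking that were tested, 19, 21 and 19 were called higher in IC at 1, 4 and 6 weeks and 0 lower, with a median log2 FC of 1.69, 1.35 and 1.25. The crosslinking oxidases LOXL1 (5.02) and LOX (3.74), the chaperone FKBP10 (4.26) and the lysyl hydroxylase PLOD2 (3.76) had the largest differences at 1 week. In RM 1 of the 21, the procollagen protease ADAMTS3, was called higher at 1 week (log2 FC 1.99), and 0 at 4 and 6 weeks. Of 7 collagen receptors tested, 3, 4 and 4 were called higher in IC and 2 lower at each stage. The count lower is near the share over all tested probe sets, which was 28.2%, 29.1% and 26.0%. ANTXR1, which binds type VI collagen, had 3.06 at 1 week, and CSPG4, a proteoglycan of pericytes that also binds it, had 1.19. ADGRG1 (log2 FC -1.33) and DDR2 (-1.60) fell, and DDR2, a receptor for fibrillar collagen, was also called lower in RM at 1 and 4 weeks (-1.30 and -1.21).

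Markers of cell types moved with the regions as well. The mean level of 13 cardiomyocyte markers lay between 9.90 and 11.1 in IC arrays, between 11.3 and 11.4 in RM arrays and between 11.3 and 11.4 in CM arrays, and 7, 9 and 4 of them were called lower in IC at 1, 4 and 6 weeks and ACTC1 higher at 1 week. That of 12 fibroblast markers lay between 8.30 and 8.93 in IC, 5.73 and 6.43 in RM, and 5.73 and 6.49 in CM, and 10, 11 and 11 of them were called higher in IC at 1, 4 and 6 weeks, with DDR2 lower. Of 11 smooth muscle and pericyte markers 7 were called higher in IC at each stage and 2 lower, and of 7 macrophage markers 7 were higher. Of 8 endothelial markers 1, 0 and 0 were called higher and 2, 2 and 3 lower in IC, and 0, 0 and 0 higher and 1, 0 and 0 lower in RM. Over all tested probe sets, 28.2%, 29.1% and 26.0% were called lower in IC and 26.0%, 25.3% and 21.0% higher. The endothelial counts lower in IC, and that of cardiomyocyte markers at 6 weeks, are near that share. In RM the other calls among these markers were CDH11 higher at 1 week, DDR2 lower at 1 and 4 weeks, and ACTA2 higher at 4 weeks. ERG was the endothelial marker called lower in RM at 1 week. The mean level of 4 Schwann cell markers lay between 4.52 and 4.73 in IC at 1 week, 5.27 and 5.60 at 4 weeks and 5.06 and 5.26 at 6 weeks, between 4.20 and 4.83 in RM, and between 4.14 and 4.47 in CM, and of the 3 tested PMP22 was called higher in IC at each stage and S100B at 4 and 6 weeks. That of 5 chondrocyte and bone markers, none of which passed the filter, lay between 1.53 and 2.07 in IC at 1 week, 2.52 and 2.95 at 4 weeks and 2.07 and 2.81 at 6 weeks, against 1.39 to 1.50 in CM. Both lists thus had higher values in IC at 4 and 6 weeks than at 1 week. The fibroblast markers rose at 4 weeks too. Their mean level lay between 8.30 and 8.40 in IC at 1 week, 8.80 and 8.93 at 4 weeks and 8.31 and 8.76 at 6 weeks. Against IC at 1 week, 4 of 12 were called higher and 1 lower at 4 weeks, and 3 higher and 1 lower at 6 weeks. Of all tested probe sets, 5.57% and 6.64% were called higher there, and 6.35% and 9.10% lower. Other lists did not rise so. In IC at 1, 4 and 6 weeks the macrophage markers averaged 5.91, 5.38 and 4.86. Those of smooth muscle averaged 7.90, 7.78 and 7.65, of cardiomyocytes 10.63, 10.36 and 10.87, and endothelial ones 4.46, 4.57 and 4.39. Against IC at 1 week, 1 of 7 macrophage markers was called higher and 1 lower at 4 weeks, and 1 higher and 3 lower at 6 weeks. Of 3 adipocyte markers tested, LPL was called lower in IC at each stage and 0 were called in RM. The part of these cell types in the levels of the 8 collagens was not tested.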

How the data were processed

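RNA was labelled and hybridized to 21 Affymetrix porcine arrays, 1 per sample. The deposited log2 values were made by the authors with RMA, and were used as they are. Arrays give no read depth, and their number limits the precision. Probe sets were named by the platform (10099 with 1 symbol, 198 with several and 13826 with none) and, where it gives none, by the human gene that the authors matched (1055). Of 1315 probe sets named by both, 1095 have the same name. Of the 12180 tested probe sets, 6257 and 1055 were so named and 4868 were not. The platform names no genome build, so positions and sequences are not given.

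Group means were fitted in limma 3.58.1 under R 4.3.3 over 21 arrays (14 residual and 3.98 prior degrees of freedom). IC against RM was fitted over 18 arrays, each pig being a fixed block (6 residual and 4.29 prior degrees of freedom), since the labels give both samples of a pig the same number. As a check, deviations from the group mean correlated between IC and RM of 1 pig by 0.0714 to 0.491, in each pig more than with the other pigs. P values were adjusted by Benjamini-Hochberg within each of 18 comparisons over all tested probe sets. Exact permutation of 3 against 3 arrays cannot give a P under 0.1 and was not used. The fits were tested on simulated data with known changes.

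Where a gene has several probe sets, that with the highest mean stands for it. Named genes are the 8 collagens, the 3 genes nearest to each by correlation, the partner chains, and up to 4 genes of each list with the largest change in IC at 1 week. ADAMTS3, COL11A1, ACTC1, CDH11, ERG, ACTA2, PMP22, S100B and LPL, and COL6A1 under the authors' name, were named after their values were seen. The genes and lists were chosen with earlier results of these data known. Alternatives were other filters, scalings, fits, thresholds and probe sets, and leaving out each array.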

Additional observations from a re-analysis of the deposited data

Results flagged for a closer look

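The difference between IC and RM of COL21A1 was 2.53 larger at 6 weeks than at 1 week on the log2 scale, a difference between stages that passed the test of the difference itself (adjusted P = 0.0206). It was higher in each of the 3 pigs of 6 weeks than in each of the 3 pigs of 1 week, and the call was lost when 1 of 5 of these 6 pigs was left out.

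Data outside the comparisons were looked at as well. A probe set that the filter had removed was flagged if all 9 IC arrays lay above all 3 CM arrays. How often this holds among all removed probe sets was not counted. Of the 3 probe sets of COL8A1 that the filter on low values removed, Ssc.16132.1.S1_at had a mean over the 9 IC arrays 1.43 above that of the 3 CM arrays, and Ssc.16132.2.A1_at had one 1.10 above it. In both, all 9 IC arrays lay above all 3 CM arrays, with IC levels of 2.24 to 4.37 against 1.91 to 2.14 in CM for Ssc.16132.1.S1_at, and 2.05 to 3.98 in IC against 1.27 to 1.78 in CM for Ssc.16132.2.A1_at. The third, Ssc.16132.1.A1_at, had means of 0.61, 0.78 and 0.90 in IC at 1, 4 and 6 weeks against 0.80 in CM. No difference was tested for these probe sets.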

How the results depend on the processing

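Over 144 comparisons of single genes and the alternatives tried for each, 2520 values in all, 2461 stayed on their side of the threshold, 29 lost the call, 15 gained it and 15 others, without a call, changed sign and moved by more than the standard error. None of the 46 called comparisons turned its direction under them. Of those without a call, 37 had the other sign under at least 1 alternative, in 76 values, among them COL15A1 and COL4A5 in IC against RM at 1 week, and their log2 FC was at most 0.65 in size. The counts of genes called in IC at 1 week against CM (7), in IC against RM at 1 week (5) and at 6 weeks (7) and in IC at 6 weeks against 1 week (1) were the same under all of them, and those of IC at 4 and 6 weeks against CM stayed between 7 and 8, also with an array left out. For IC against RM at 4 weeks the count was 6 to 8, and 6 to 7 with a pig left out. Fitting only the groups compared gave 0 genes in RM at 1 week, 1 in RM at 4 weeks and 0 for IC at 4 weeks against 1 week, and an adjusted P under 0.01 gave 0 in RM at 1 week, 0 for IC at 4 weeks against 1 week and 0 for IC minus RM at 6 weeks against 1 week. Array weights gave 3 genes in RM at 4 weeks, 1 in RM at 6 weeks, 2 lower for RM at 4 weeks against 1 week and 1 for IC minus RM at 4 weeks against 1 week, which was also 1 with no filter on low values. Dropping the pig as a replicate block gave 0 genes for IC minus RM at 6 weeks against 1 week in place of 1 and changed no other count of genes called, and treating pigs as a random replicate block called 2, 0 and 0 genes in RM and 7, 8 and 7 in IC, as without it. With 1 array left out the counts were 0 to 2 in RM at 1 week (0 without the CM array of pig 31 or the RM array of pig 8), 0 to 1 for IC at 4 weeks against 1 week (0 without pig 22 of 4 weeks or pig 7 or 9 of 1 week) and 0 to 1 for IC minus RM at 6 weeks against 1 week (0 without pig 3, 5, 7, 8 or 9). The cause of these changes was not tested. Centring on 55 ribosomal protein genes moved the median of all tested probe sets in IC against CM to between -0.37 and -0.32, and the share of higher among called ones to 29.5%, 26.5% and 26.6% at 1, 4 and 6 weeks, where it was 47.9%, 46.4% and 44.7% as deposited. The mean of all probe sets of a gene, which concerns COL8A1 alone, was added after the data had been seen. The mean of the probe sets that pass the filter could change nothing, since no gene has several such probe sets. An adjusted P under 0.01 leaves every log2 FC as it is and could not turn a sign. Both are counted among the 2520 values, so the number that stayed is in part fixed beforehand. With 3 arrays a group, a missed call is no sign of equal levels.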
